A study of Homo sapiens with 50 samples.

Results

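Mitotic kinesins were followed in H1299 cells, a human non-small cell lung carcinoma line, and in H1299shRAD9 cells, the same line carrying a retroviral short hairpin RNA against *RAD9*. The group comprised 10 genes, *KIF20A*, *KIF11*, *KIF23*, *KIF2C*, *KIF4A*, *KIF14*, *KIF18A*, *KIF22*, *KIFC1* and *KIF15*, and was taken by gene name from the array annotation. It was chosen with earlier results of these data known. These genes were read by 13 of the 34127 probes that were not controls. RNA had been collected 4 h after exposure to 1 Gy of α particles (4He ions) or sham irradiation, and 5 samples per group in 10 groups gave 50 one-color arrays.

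In each cell line, CTL denotes sham irradiated cells. BP and BN denote bystander cells, which shared a dish with irradiated cells and did (BP, bystander positive) or did not (BN, bystander negative) show a high frequency of micronuclei. DBP and DBN denote the directly irradiated cells of those same dishes. The groups were therefore chosen by the submitters on micronuclei, which were scored in a small part of each dish. Both lines came from one tumor, RAD9 was reduced by the hairpin rather than removed, and 2 stable transfectants had been used interchangeably, without the sample labels naming which.

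Kinesins are motor proteins that use ATP to move along microtubules or to take their ends apart. Those studied here act in cell division, where they set up the spindle, align and carry chromosomes and complete the separation of daughter cells. Their transcripts are known to be most abundant in G2 and mitosis and low in G1, so that in a growing culture they vary with the fraction of cells about to divide. In RNA from a whole dish, fewer dividing cells and less transcript per cell cannot be told apart.

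The oligonucleotide probes are shown first for the genes with a probe that crosses an exon junction, since these sequences define what was measured, and for *KIF22* because its probes were not independent. Positions are on hg19, the build of the array annotation, and sequences are those of the plus strand. The *KIF20A* probe lay within chr5:137522081-137522804, the *KIFC1* probe within chr6:33374428-33374621, and the *KIF22* probes at chr16:29815336-29816143 (A_23_P54622) and chr16:29815326-29815385 (A_33_P3350634). Capitals mark the 50 bases that both *KIF22* probes share.
KIF20A A_23_P256956: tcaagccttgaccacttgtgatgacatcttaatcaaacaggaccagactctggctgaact
KIFC1 A_23_P133956: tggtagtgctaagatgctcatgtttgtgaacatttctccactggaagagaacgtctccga
KIF22 A_23_P54622: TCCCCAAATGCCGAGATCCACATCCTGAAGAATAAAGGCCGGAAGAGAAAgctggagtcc
KIF22 A_33_P3350634: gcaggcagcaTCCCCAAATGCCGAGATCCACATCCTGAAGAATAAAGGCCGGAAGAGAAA

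The *KIF20A* probe was printed 10 times on each array and the other 12 probes once. *KIF23* and *KIF4A* had probes at separate positions. Over the 50 arrays the correlation between the probes of one gene was 0.96 for *KIF22*, 0.829 for *KIF23* and 0.613 for *KIF4A*, as a description of arrays that share samples and scaling. All 13 probes were well above background on all 50 arrays and none was saturated on any.

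The sequence just upstream of the annotated start is shown for the genes found lower in directly irradiated H1299shRAD9 cells, and for *KIF22*, which was not. These are the 100 bases before the start in RefSeq (GRCh38.p14), on the strand of the gene. Capitals mark the letters TTTGAA and TTCGAA, forms of the cell cycle genes homology region, and CCAAT, the box bound by NF-Y, read on either strand.
KIF20A chr5:138179012-138179111, plus strand: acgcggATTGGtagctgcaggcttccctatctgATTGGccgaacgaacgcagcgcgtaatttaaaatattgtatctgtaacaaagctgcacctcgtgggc
KIF14 chr1:200620752-200620851, minus strand: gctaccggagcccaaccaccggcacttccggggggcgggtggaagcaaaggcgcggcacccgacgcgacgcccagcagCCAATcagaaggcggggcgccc
KIFC1 chr6:33391723-33391822, plus strand: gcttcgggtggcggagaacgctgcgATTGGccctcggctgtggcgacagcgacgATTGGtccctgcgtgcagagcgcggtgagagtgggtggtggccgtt
KIF23 chr15:69414249-69414348, plus strand: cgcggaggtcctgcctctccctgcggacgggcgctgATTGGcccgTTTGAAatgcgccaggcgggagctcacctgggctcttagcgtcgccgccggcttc
KIF18A chr11:28108157-28108256, minus strand: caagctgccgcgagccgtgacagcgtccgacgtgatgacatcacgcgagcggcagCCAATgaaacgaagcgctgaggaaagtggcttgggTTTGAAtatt
KIF22 chr16:29790651-29790750, plus strand: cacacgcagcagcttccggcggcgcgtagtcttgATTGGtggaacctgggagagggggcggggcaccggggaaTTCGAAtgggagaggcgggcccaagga

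All 10 genes were found in the promoter table, which covers 250 bases before to 50 bases after the start, and the first of its entries was used for each gene. TTTGAA or TTCGAA occurred in 8 of the 10 windows, against 16.6% of 27305 promoters, and CCAAT in 8 of 10, against 35.7%. Both kinds occurred in 7 of 10 windows and in 6.6% of all promoters. *KIF20A* and *KIF2C* held neither TTTGAA nor TTCGAA. In *KIF14* and *KIFC1* the TTTGAA match lay after the start and is not in the bases shown. The matches describe these letters in these windows and show no binding.

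Levels are given as log2 of the processed intensity relative to the median of the array, so that a difference of 1 is a factor of 2. Between 58.2% and 84.2% of spots were well above background per array, and the highest value was that of H1299 DBN replicate 1, which is considered separately where it touches a result. The RNA of the hairpin target, *RAD9A*, was at 3.65 ± 0.19 (SD, n = 5) in H1299shRAD9 CTL and 4.01 ± 0.13 in H1299 CTL, so that 77.9% of its probe signal remained (exact permutation test, 2-sided, p = 0.0159). This is not the protein level, for which the paper reports a much larger reduction by Western blot. Between the same groups 33.9% of the 20074 features that passed the background criterion described below had an unadjusted p under 0.05 by limma. CTL arrays of the 2 lines shared no slide, so slide and line cannot be told apart for *RAD9A* either. Among markers of cell type, the *KRT8*, *KRT18* and *VIM* probes, which mark epithelial and mesenchymal cells, were well above background on all 50 arrays. *COL1A1* was so on 8 arrays, *COL3A1* on 1 and the *PECAM1* probes on at most 2, whereas *CDH5* and 2 of the 5 *PTPRC* probes were so on all 50 and *CD3E* on 38.

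Features were filtered on background and then on variation, which required a difference of at least 1.3-fold from the median of the feature in at least 20% of the arrays. All 13 kinesin probes passed the first criterion with 20074 features, and 8 passed both with 12181 features. The latter were those of *KIF20A*, *KIF14*, *KIF18A*, *KIFC1* and *KIF15*, both probes of *KIF23* and the dimmer probe of *KIF4A* (A_33_P3253596). *KIF11*, *KIF2C*, *KIF22* and the brighter *KIF4A* probe varied by 1.3-fold in 16% to 18% of the arrays and were tested with the background criterion alone. Differences between groups were tested with limma, whose linear models pool variance information across features, and a feature was called at p under 0.006 with a false discovery rate under 10%.

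**Figure D1:**
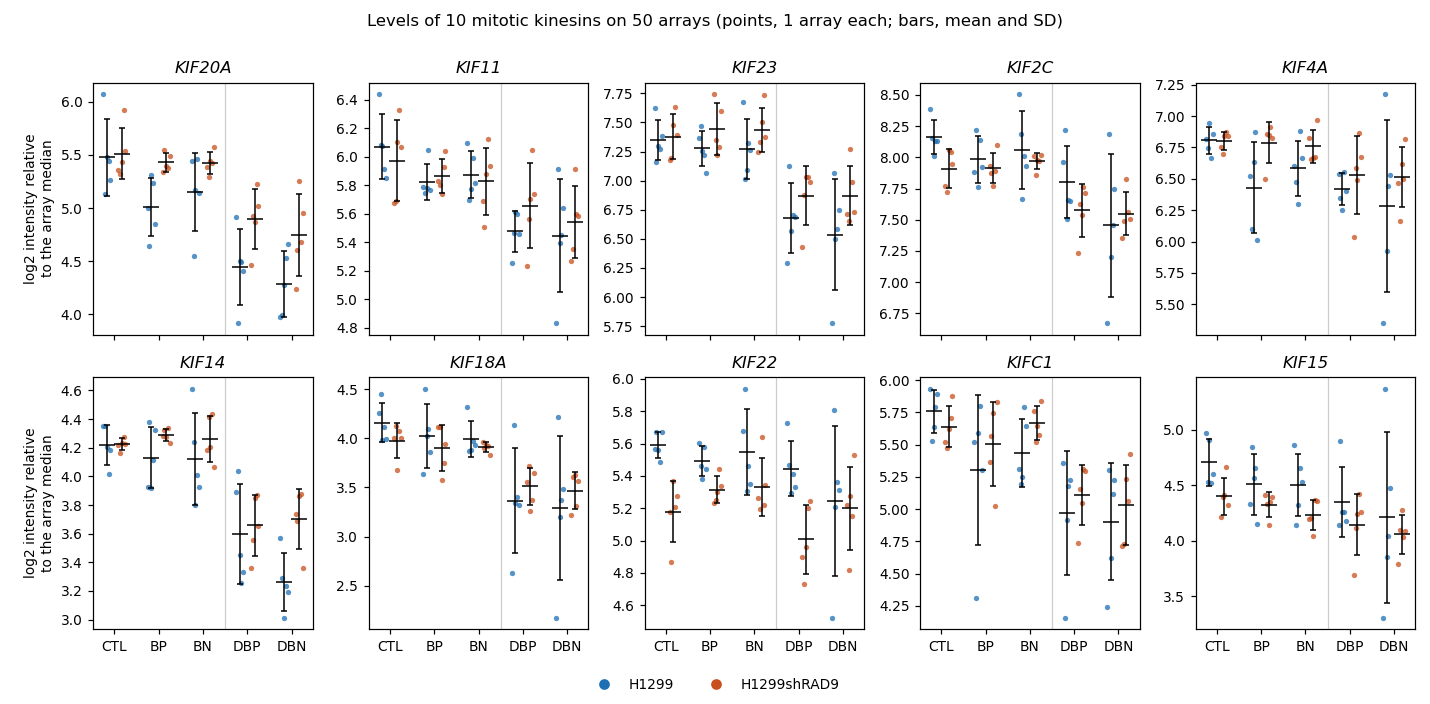
Log2 intensity relative to the array median (vertical axes, 1 range per gene) of the 10 kinesins, each by its brightest probe, in the 5 groups of H1299 and of H1299shRAD9. Points are single arrays and bars the mean and SD of 5. The *KIF20A* arrays of DBP and DBN (right of the gray line) lie below every CTL array in both lines and those of *KIF14* do so except in H1299 DBP, while the *KIF22* groups overlap with CTL.

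Directly irradiated cells were compared with their sham controls to find whether the spindle motors respond to a direct hit. In H1299shRAD9 cells 5 of the 8 tested kinesin probes were lower in DBP than in CTL and none was higher. Of all 12181 features, 1.8% were called in this comparison and 0.78% were called lower. By unadjusted p under 0.05 in limma there were 7 of 8 kinesin probes, against 15.2% of all features. The groups did not overlap for 4 of the 8, the DBP arrays lying lower, against 0.796% of all features. The median difference was −0.51 over the 8 kinesin probes and 0.02 over all features. With the background criterion alone, which does not select on variation, it was −0.33 over the 13 kinesin probes and 0.03 over all features.

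*KIF20A*, which brings the chromosomal passenger complex to the central spindle for cytokinesis, stood at 5.36, 5.32, 5.43, 5.92 and 5.54 in H1299shRAD9 CTL replicates 1 to 5. In DBP it stood at 4.46, 4.92, 4.87, 5.23 and 5.02. Each DBP array lay below every CTL array, and the decrease of −0.61 ± 0.11 (SE, n = 5 pairs) left 65.4% of the control level (limma adjusted p = 0.0789).

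*KIF14*, a motor of the midbody that binds citron kinase, was at 4.22, 4.16, 4.23, 4.28 and 4.23 in CTL and at 3.36, 3.56, 3.85, 3.87 and 3.66 in DBP. The CTL arrays differed by little and the groups did not overlap. The decrease was −0.57 ± 0.11 (SE), to 67.6% of control (limma adjusted p = 0.0837).

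*KIFC1*, a motor that moves toward microtubule minus ends and focuses spindle poles, was at 5.52, 5.47, 5.62, 5.71 and 5.87 in CTL and at 4.74, 5.15, 5.05, 5.31 and 5.30 in DBP. Again the groups did not overlap. The decrease was −0.53 ± 0.10 (SE), to 69.3% of control (limma adjusted p = 0.0847).

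*KIF23*, the motor subunit of centralspindlin, decreased by −0.51 ± 0.10 (SE) on its brighter probe (limma adjusted p = 0.092). Its second probe gave −0.52 ± 0.13 with an adjusted p of 0.125 by limma and was not called. *KIF18A*, which restrains chromosome movements by acting on the plus ends of kinetochore microtubules, decreased by −0.47 ± 0.10 (limma adjusted p = 0.0948), and its DBP and CTL arrays overlapped. *KIF18A* was nevertheless lower in DBP in all 5 pairs, as were both *KIF23* probes.

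Of the kinesins not called, *KIF15*, which supports spindle bipolarity together with *KIF11*, differed by −0.26 ± 0.10 (SE, limma adjusted p = 0.296). With the background criterion alone, *KIF11*, the motor that pushes spindle poles apart, differed by −0.32 ± 0.09 (limma adjusted p = 0.166) and *KIF2C*, a microtubule depolymerase at kinetochores, by −0.33 ± 0.10 (adjusted p = 0.192). The chromokinesin *KIF4A* differed by −0.27 ± 0.12 on its brighter probe and by −0.08 ± 0.12 on the other, which disagree in size. The chromokinesin *KIF22* differed by −0.17 ± 0.09 and −0.10 ± 0.11 on its overlapping probes. In that setting 5 of 13 kinesin probes were called lower, against 0.563% of 20074 features, and all 13 estimates were below 0.

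In H1299shRAD9 DBN, where the bystanders of the irradiated cells showed no excess of micronuclei, 4 of the 8 tested probes were lower than in CTL and none was higher, against 1.42% of all features called lower. By unadjusted p under 0.05 in limma there were 7 of 8, against 16.7%. *KIF20A* was at 4.24, 4.61, 5.25, 4.68 and 4.96 in DBN, a decrease of −0.77 ± 0.16 (SE) to 58.8% of control (limma adjusted p = 0.0677). *KIFC1* decreased by −0.61 ± 0.11 (adjusted p = 0.0506 by limma), *KIF14* by −0.52 ± 0.11 (adjusted p = 0.0677) and *KIF23* by −0.51 ± 0.11 on its brighter probe (adjusted p = 0.0681). The groups did not overlap for *KIF20A*, *KIFC1*, *KIF14* and *KIF18A*, which is 4 of 8 probes against 1.11% of all features.

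*KIF18A* differed by −0.51 ± 0.13 (SE) with a limma adjusted p of 0.1004, just outside the threshold. *KIF11* was called with the background criterion alone (−0.43 ± 0.10, limma adjusted p = 0.0995), where 0.902% of features were called lower. The *KIF22* probes differed by 0.02 ± 0.09 and 0.01 ± 0.09. DBP and DBN share their CTL arrays, so these comparisons are not independent.

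The number of calls in H1299shRAD9 changed with the pairing of replicates and when a replicate was left out. Without the replicate block 0 of 8 kinesin probes were called in either comparison, although 6 of 8 in DBP and 7 of 8 in DBN had an unadjusted p under 0.05 by limma. With slide as a fixed block, an alternative chosen after seeing the data, 0 of 8 were called in either, and with slide as a random block 2 in DBP and 4 in DBN. In pairs that lay on the same slide, 25 of 26 probe differences were below 0 for DBP (median −0.31) and 11 of 13 for DBN (median −0.42). Without any one of replicates 2, 3, 4 or 5 no probe was called in DBP, whereas 6 were called without replicate 1. Without any one of replicates 1, 2, 3 or 4 none was called in DBN, and 3 were called without replicate 5.

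The same comparisons were made in H1299 cells, where 1 kinesin probe was called in DBP and 0 in DBN. *KIF20A* was at 6.07, 5.13, 5.48, 5.44 and 5.26 in CTL and at 4.91, 3.92, 4.50, 4.50 and 4.41 in DBP. Each DBP array lay below every CTL array, as for 4 of the 8 probes and 0.911% of all features. The decrease of −1.03 ± 0.15 (SE, n = 5 pairs) left 49.0% of control (limma adjusted p = 0.0957), and *KIF20A* was the kinesin called among the 8 tested, against 0.0575% of all features. The call was lost without any one replicate, with adjusted p between 0.156 and 0.551.

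The other kinesins were not called in H1299 DBP. *KIFC1* differed by −0.79 ± 0.17 (SE, limma adjusted p = 0.303), *KIF18A* by −0.79 ± 0.20, *KIF23* by −0.67 ± 0.19 and −0.90 ± 0.23 on its probes and *KIF14* by −0.63 ± 0.16. In all, 7 of 8 probes had an unadjusted p under 0.05 by limma, against 6.27% of all features, and the same 7 were lower in all 5 pairs.

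In H1299 DBN no kinesin probe was called, whereas 6 of 8 had an unadjusted p under 0.05 by limma, against 3.46% of all features, and 0.0164% of all features were called. In same-slide pairs 48 of 52 probe differences were below 0 for DBP (median −0.54) and 26 of 26 for DBN (median −0.71). In DBN *KIF20A* was at 3.97, 4.00, 4.28, 4.53 and 4.66, below every CTL array, and differed by −1.19 ± 0.26 (SE), to 43.8% of control (limma adjusted p = 0.633). *KIF14* was at 3.57, 3.29, 3.02, 3.23 and 3.19 against 4.35, 4.35, 4.20, 4.02 and 4.18 in CTL, a difference of −0.96 ± 0.23 (limma adjusted p = 0.645). These groups did not overlap, as for 4 of the 8 probes and 0.87% of all features.

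H1299 DBN replicates 1 and 2 stood apart from each other. *KIF18A* was at 2.18 in replicate 1 and 4.22 in replicate 2, with 3.20, 3.37 and 3.48 in the others, and *KIF15* at 3.31 and 5.37, with 3.85, 4.04 and 4.48. Without replicate 1 the median over the 8 kinesin probes changed from −0.86 to −0.60, and without replicate 2 to −1.002, and no probe was called in either case. With all 50 arrays in one fit, which takes the spread from every group, 6 of 8 probes were called in H1299 DBN and 6 of 8 in H1299 DBP. The median over all features that passed the background criterion was 2.29 in replicate 1, the lowest of the 50 arrays, and 3.13 in replicate 2, the highest. The shifts of these arrays were therefore not confined to kinesins. The part of the high share of spots above background in replicate 1 was not tested.

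**Figure D2:**
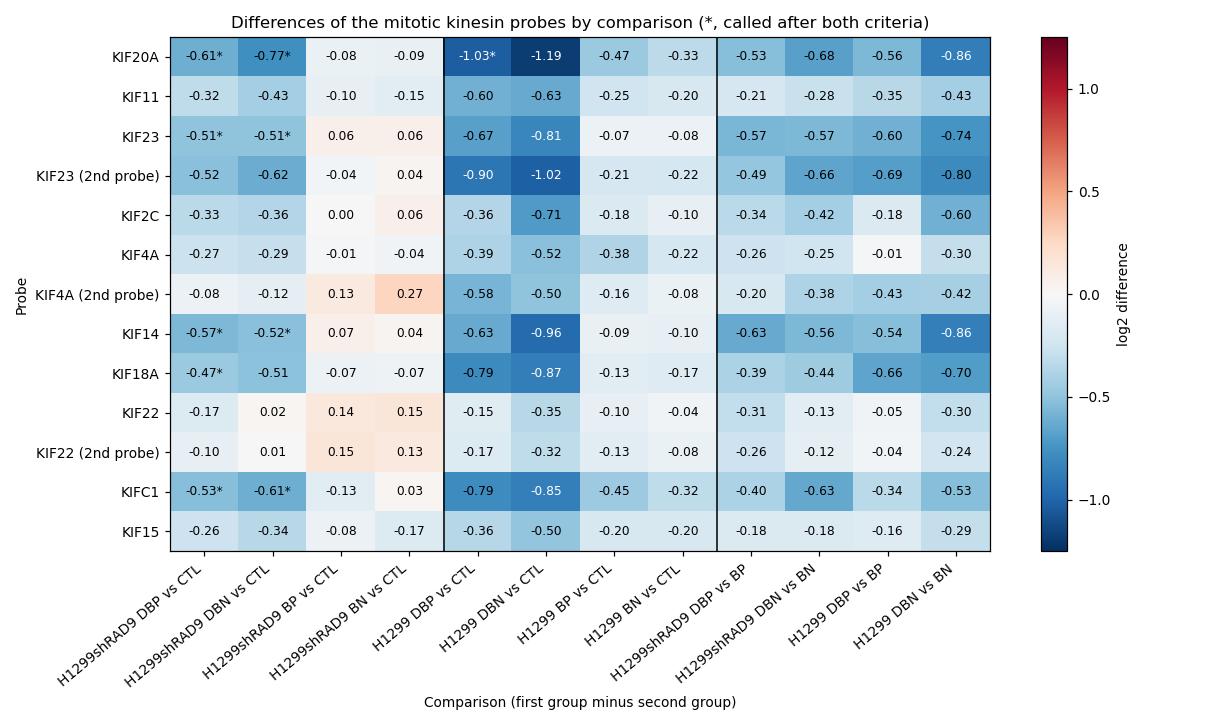
Log2 differences (color and number) of the 13 kinesin probes, in rows, for 12 comparisons, in columns, each the first group minus the second. Asterisks mark probes called after both criteria, which were 5 in H1299shRAD9 DBP, 4 in H1299shRAD9 DBN and 1 in H1299 DBP. The columns of direct irradiation are blue in nearly every row, and those of bystander cells of H1299shRAD9 are near 0.

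Bystander cells were compared with the same controls. In H1299shRAD9 BP and BN no kinesin probe was called, and 0 of 8 had an unadjusted p under 0.05 by limma, although 2.34% of all features were called in BP and 0.0493% in BN, and 12.6% and 14.3% had such a p. *KIF20A* was at 5.34, 5.55, 5.39, 5.38 and 5.49 in BP and at 5.39, 5.29, 5.44, 5.42 and 5.58 in BN, within the range of CTL except for BN replicate 2. Its difference from CTL was −0.08 in BP (95% confidence interval −0.37 to 0.20) and −0.09 in BN (−0.35 to 0.17). For *KIF14* the intervals were −0.14 to 0.27 in BP and −0.19 to 0.27 in BN, which leave out the −0.57 and −0.52 measured in DBP and DBN.

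In H1299 bystanders all 8 estimates were below 0 in both groups, with medians of −0.18 in BP and −0.18 in BN, against −0.07 and −0.04 over all features, and none was called. Without replicate 1 the median in BP was −0.07. With normexp background correction the median of 13 probes in BN was −0.97, where that of all features was −0.71, and under that correction H1299 BN replicates 1 and 5 had the lowest medians over all features of the 50 arrays. *KIF20A* differed by −0.47 in BP (95% confidence interval −0.90 to −0.04) and by −0.33 in BN (−0.63 to −0.02), with limma adjusted p of 0.779 and 0.999. *KIFC1* differed by −0.45 in BP (−0.93 to 0.03) and by −0.32 in BN (−0.60 to −0.04). By unadjusted p under 0.05 in limma there was 1 of 8 probes in BP, against 5.84% of all features, and 2 of 8 in BN, against 2.77%. No feature at all was called in either comparison.

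Direct and bystander arrays of equal replicate number, taken as the same dishes, were then compared with each other, which does not use the controls. The labels do not say that equal numbers are one dish. Deviations of same-numbered arrays correlated on average at 0.614 (DBP and BP) and 0.561 (DBN and BN) in H1299shRAD9. In H1299 these were 0.369 and 0.242, below the 0.575 between DBP and DBN, which come from different dishes. None of the 8 kinesin probes was called in any of these 4 comparisons, whereas 0.115% of features were called in H1299shRAD9 DBP against BP, 0.131% in DBN against BN and 0 in either H1299 comparison. By unadjusted p under 0.05 in limma there were 6 and 7 of 8 in H1299shRAD9, against 4.65% and 2.62% of all features, and 6 and 5 of 8 in H1299, against 6.09% and 3.37%. All 8 estimates were below 0 in each comparison, with medians of −0.44 and −0.56 in H1299shRAD9 and −0.55 and −0.72 in H1299. The direction turned in H1299 DBN against BN with normexp background correction, where the median of 13 probes was 0.28 and that of all features 0.55. Without replicate 1 it was −0.42, with 7 of 8 estimates below 0.

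*KIF14* had the smallest adjusted p of the kinesins in H1299shRAD9 DBP against BP (−0.63 ± 0.11 SE, limma adjusted p = 0.193). *KIF20A* was lower in the directly irradiated member of all 5 pairs in all 4 comparisons, by −0.53, −0.68, −0.56 and −0.86. *KIF15* was lower in 3 or 4 of 5 pairs, by −0.16 to −0.29.

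Most of these pairs had been hybridized on the same slide, which holds up to 4 arrays. In H1299shRAD9, 47 of 52 same-slide probe differences were below 0 for DBP against BP (median −0.30) and 50 of 52 for DBN against BN (median −0.41). In H1299 it was 31 of 39 (median −0.32) and 52 of 52 (median −0.59). The values of one pair share arrays and are not replicates. In the 1 H1299 pair of DBN and BN on different slides, replicate 2, 4 of 13 differences were below 0.

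**Figure D3:**
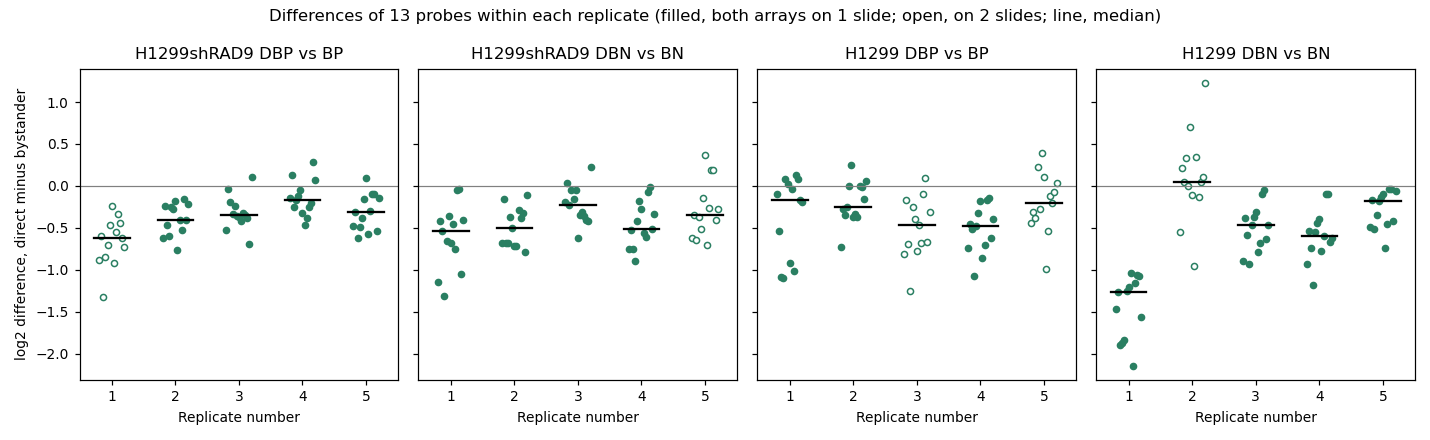
Log2 difference of each of the 13 kinesin probes between directly irradiated and bystander cells of 1 replicate (vertical axis), by replicate number, with filled points for arrays on the same slide and lines at the median. The median lies below 0 in every replicate except H1299 DBN against BN replicate 2.

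Whether the response of the kinesins differed between the lines was tested as the interaction of cell line and exposure. The H1299 cells were untransfected, whereas the H1299shRAD9 cells were stable clones selected with puromycin. Effects of RAD9 level and of selection therefore cannot be told apart here. No kinesin probe and no feature was called for DBP, BP, DBN or BN after both criteria. With the background criterion alone 3 of 20074 features were called for DBN, and no kinesin probe was. In simulated data 4.5% of 200 features changed by 1 on the log2 scale were found in the DBP interaction. The simulated arrays were drawn independently, without the correlation between same-numbered arrays, so this share is not the power of the paired test used. An absence of calls does not show that the lines responded alike. By unadjusted p under 0.05 in limma there were 2 of 8 kinesin probes for DBP, against 8.66% of all features, 0 for BP and DBN, against 7% and 9.08%, and 1 for BN, against 7.79%. The estimates (H1299shRAD9 minus H1299) were above 0 for all 8 probes in each of the 4 tests. With the background criterion alone they were so for all 13 except 1 in DBP (−0.025). The 4 tests share the CTL arrays of both lines, so they are not independent. Their common sign is therefore not separate evidence from each test. The medians over the 8 probes were 0.29 for DBP, 0.17 for BP, 0.37 for DBN and 0.19 for BN. Over all features the medians were 1.12e-05, 0.10, 0.09 and 0.05 in the same order. The median for DBN was 0.12 without replicate 1 and −0.02 with slide as a fixed block, and that for BP was 0.07 without replicate 1. For *KIF20A* in DBP the interaction was 0.42 (95% confidence interval 0.06 to 0.77, limma adjusted p = 0.567), and for *KIF14* it was 0.06 (−0.32 to 0.44).

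DBP was also compared with DBN, and BP with BN. No kinesin probe was called in either line, as no feature was, none had an unadjusted p under 0.05 by limma, and the median difference between DBP and DBN was 0.06 in H1299shRAD9 and 0.13 in H1299. The share of all features with an unadjusted p under 0.05 was 0.493% for DBP against DBN and 0.369% for BP against BN in H1299shRAD9, and 0.476% and 1.64% in H1299. These fits were unpaired, although the deviations of same-numbered arrays correlated at 0.404 on average between DBP and DBN in H1299shRAD9 and at 0.575 in H1299. With a replicate block added the shares for DBP against DBN were 1.57% and 4.56%, and again no kinesin probe was called or had such a p.

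Without irradiation 15.5% of all features were called between the 2 lines at p under 0.005. None of the 8 kinesin probes was called, and 1 had an unadjusted p under 0.05 by limma, against 39.3% of all features, the dimmer *KIF4A* probe (−0.41 ± 0.15 SE, limma adjusted p = 0.0603). The 95% confidence interval of the difference was −0.38 to 0.45 for *KIF20A* and −0.27 to 0.27 for *KIF14*.

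Of the 13 probes that passed the background criterion, 10 had estimates below 0. An unadjusted p under 0.05 by limma was reached by 5 of the 13, all lower, against 33.9% of all features. *KIF22* was the only kinesin called in that setting. It was at 5.17, 4.87, 5.37, 5.21 and 5.28 in H1299shRAD9 CTL and at 5.57, 5.67, 5.56, 5.49 and 5.67 in H1299 CTL, and the groups did not overlap, as for 6.08% of 20074 features. The difference was −0.41 ± 0.11 (SE, limma adjusted p = 0.0294), to 75.1% of H1299, and −0.41 ± 0.12 on the overlapping probe (adjusted p = 0.0358), where 6.07% of features were called lower. No slide held CTL arrays of both lines, so slide and line cannot be told apart here.

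The kinesins also varied together among arrays. Over the 45 pairs of the 10 genes the correlation across 50 arrays was 0.153 to 0.844 with a median of 0.625, and with the group means removed −0.374 to 0.817 with a median of 0.417. Among the genes most like the mean of the 10 over the 50 arrays, of 20074 features, were *BUB1B* (r = 0.935), *ASPM* (0.924), *CDCA8* (0.901), *AURKA* (0.899) and *FAM83D* (0.893). With the group means removed, r was 0.891, 0.792, 0.771, 0.706 and 0.734 in the same order. These points share samples and the scaling of each array. Among the members, *KIF14* had a correlation with that mean of 0.734 over all arrays and 0.161 within groups, the lowest within groups of the 13 probes.

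Other genes of the microtubule system were taken as lists. These were chosen with earlier results of these data known, so the counts describe the lists and are not an independent test. Partners of the mitotic kinesins, such as passenger complex, kinetochore and spindle assembly proteins, were lower in H1299shRAD9 DBP for 7 of 23 features tested and in DBN for 10 of 23, with none higher. Of all features 0.78% and 1.42% were called lower, and 1.02% and 3.43% higher. The medians were −0.48 and −0.41, against 0.02 and −0.02 over all features. In H1299 the partner medians were −0.81 in DBP and −0.80 in DBN, against 0.01 and −0.10. There 3 and 0 of the 23 were called lower, against 0.0575% and 0.0164%. Between the CTL groups the partner median was −0.27 (H1299shRAD9 minus H1299), against 0.10, and 4 of 23 were called lower, against 7.66%. In H1299shRAD9 DBP the largest decreases were in the spindle proteins *PSRC1* (−1.03 ± 0.13 SE, limma adjusted p = 0.0456) and *FAM83D* (−0.99 ± 0.12) and in *CDCA8* (−0.81 ± 0.10), the passenger protein Borealin. In H1299shRAD9 DBN they were in *FAM83D* (−1.10 ± 0.12), *PSRC1* (−0.997 ± 0.09) and the mitotic kinase *AURKA* (−0.91 ± 0.14).

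Of the other mitotic kinesins 4 features were tested, and 1 was called in each comparison, *CENPE*, the kinetochore motor (−0.62 ± 0.10 SE in DBP and −0.65 ± 0.12 in DBN, limma adjusted p = 0.0783 and 0.0546). Of 24 features of transport and other kinesins 0 were lower, and 1 was higher in DBP and 2 in DBN. With the background criterion alone *KIF24*, named after its value was seen, was called lower in DBN (−0.39, limma adjusted p = 0.0971). *KIF13B*, a vesicle motor, rose by 0.73 ± 0.13 and 0.89 ± 0.16 (adjusted p = 0.0789 and 0.0535 by limma). It also rose in BP, by 0.76 ± 0.16 (adjusted p = 0.0819 by limma), and differed by 0.87 ± 0.15 in BN (adjusted p = 0.155 by limma). The kinesin light chain *KLC3* rose by 0.41 ± 0.10 in DBN.

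Of 10 cytoplasmic dynein features 1 was higher in each, the light intermediate chain *DYNC1LI2* (0.61 ± 0.13 and 0.65 ± 0.11 SE), which also rose in BP (0.61 ± 0.10). Of 16 tubulin features none was called, with 1 at an unadjusted p under 0.05 by limma in each. Of 13 S phase features none was lower and 1 was higher in DBN, the replication checkpoint adaptor *CLSPN* (0.69 ± 0.14), which also rose in BP (0.55 ± 0.10). A list named for the MuvB complex and B-MYB, regulators of the transcription of G2 and M phase genes, held 13 genes, *NFYA* among them. Of its 9 features tested none was called, with 0 and 3 at an unadjusted p under 0.05 by limma, against 15.2% and 16.7% of all features.

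**Figure D4:**
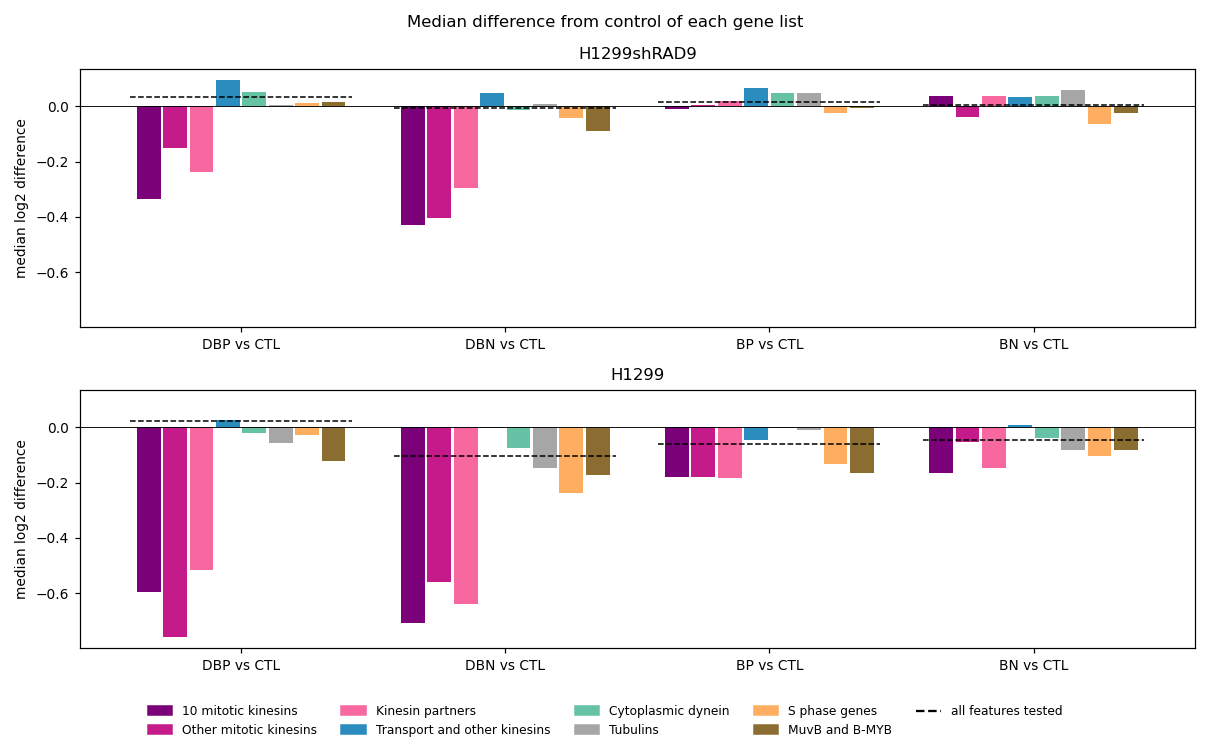
Median log2 difference from CTL (vertical axis) of 8 gene lists in 4 exposures of each line, over features that passed the background criterion, with the median of all features as a dashed line. The 10 mitotic kinesins, the other mitotic kinesins and the kinesin partners lie lowest in DBP and DBN, at −0.33 and −0.43 for the 10 kinesins in H1299shRAD9 and −0.60 and −0.71 in H1299.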

How the data were processed

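Total RNA was labeled with Cy3 and hybridized to Agilent 4x44K arrays. Per the file headers, the authors ran Feature Extraction 11.5.1.1, which yielded a processed, background subtracted intensity for each spot. The deposited value table of the authors holds log2 values, background corrected and median normalized, for 9502 features. Processed intensities were log2 transformed here, flagged spots were omitted, spots of a probe were averaged and the array median was subtracted. A feature was kept where fewer than 25% of its arrays were flagged or dim, and where it met the 1.3-fold criterion. Groups were compared with limma 3.58.1 in R 4.3.3 with Benjamini-Hochberg adjustment over all features, paired by replicate number for dishes and their controls, and unpaired for the cell lines and between dishes. The authors used paired tests on matched samples, and equal replicate numbers were taken as pairs. The deviations of same-numbered arrays correlated at 0.486 to 0.534 on average between H1299shRAD9 groups and CTL, and at 0.141 to 0.416 in H1299, where some pairs were below 0.1. P-values measure the spread between these samples. The members and lists were chosen with earlier results of these data known. A gene was represented by its probe with the highest mean signal. Named list genes were at most the 3 with the largest called differences in H1299shRAD9 DBP or DBN. Some features covered by the rules for markers and similar genes are not reported here. The code was tested on simulated data, where 27.5% of 200 features changed by 1 on the log2 scale were found in H1299shRAD9 DBP, among 11852 features. The simulated arrays held no correlation between same-numbered arrays, so this share checks the code and is not the power of the paired fit.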

Additional observations from a re-analysis of the deposited data

Results flagged for a closer look

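Of 130 sets of 5 arrays, 1 per probe and group, 8 held an array far from the others by Dixon's ratio, where chance gives about 1 in 20. No cause was tested for any of them. In H1299, *KIF4A* (A_33_P3253596) was at 1.71 in DBN replicate 1, with the nearest array at 2.91, on the array with the highest share of spots above background (84.2%). That array also had the lowest median over all features that passed the background criterion (2.29). In H1299 DBP, *KIF15* was at 4.90 in replicate 2 (nearest 4.26) and *KIF22* (A_33_P3350634) at 5.68 in replicate 1 (nearest 5.33). In H1299 bystanders, *KIF11* was at 6.05 in BP replicate 4 (nearest 5.79) and *KIF18A* at 4.32 in BN replicate 1 (nearest 3.97). In H1299shRAD9, *KIF23* (A_23_P48835) was at 6.43 in DBP replicate 1 (nearest 6.88), *KIF4A* (A_23_P148475) at 6.50 in BP replicate 1 (nearest 6.82) and *KIF18A* at 3.67 in CTL replicate 3 (nearest 4.00). Without DBP replicate 1 the number of kinesin probes called in H1299shRAD9 DBP was 6 of 8.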

How the results depend on the processing

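Against CTL, the median over the probes tested in directly irradiated cells was below 0, the highest being −0.33, in all 68 settings of the 4 comparisons, while the number called changed. In H1299 DBN against BN the median turned to 0.28 with normexp, where that of all features was 0.55. In H1299shRAD9 DBP, 5 probes were called, 6 with the 75th percentile or quantile normalization, 2 with all arrays in one fit, 2 with slide as a random block, 0 without filters and 0 to 6 when a replicate was left out. In H1299shRAD9 DBN, 4 were called, 5 with the 75th percentile, 6 with quantile normalization, 2 in one fit, 0 without filters and 0 to 3 when a replicate was left out. In H1299 DBP, 1 was called, 6 in one fit, 2 with normexp, and 0 with the 75th percentile, quantile normalization, no filters, slide as a random block or a replicate left out (0 to 0). In H1299 DBN, 0 were called, 6 in one fit and 2 with slide as a random block. For DBP against BP in H1299shRAD9, 0 became 1 with the 75th percentile, quantile normalization, one fit, the deposited values or slide as a random block, and 4 without filters. One fit called 2 for DBN against BN in H1299shRAD9, 1 for DBP against BP and 4 for DBN against BN in H1299. Between the CTL groups 3 were called with normexp and 2 without the 1.3-fold criterion. The alternatives that follow were chosen after seeing the data. With slide as a fixed block 0 were called in H1299shRAD9 DBP and DBN and in H1299 DBP. With the median taken over spots before averaging, the order in the methods of the study, 6 of 9 were called in H1299shRAD9 DBP, 5 of 9 in DBN, 1 of 9 in H1299 DBP and 0 in H1299 DBN.

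Without the replicate block 0 probes were called in H1299shRAD9 DBP, 0 in H1299shRAD9 DBN and 0 in H1299 DBP, and the pairing changed no other count, which was 0 with and without the block. For single probes, 2440 of 2600 settings kept the side of the threshold, 115 lost the call and 45 gained one. No called probe changed sign, and uncalled estimates changed sign in 87 settings, of which 5 were in direct comparisons with CTL and 12 in H1299 DBN against BN. The *RAD9A* difference was −0.28 to −0.41 when an array was left out. The number of arrays limits the precision.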
